A study of Mus musculus with 8 samples.

Results

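White and brown adipocyte genes were described in fibroblasts sorted from the healing mouse infarct. The set held 40 genes, chosen by name from the 54532 genes of the deposited table for their roles in the lipid droplet, in lipolysis, lipid uptake and triacylglycerol synthesis, as adipokines and in heat production. All 40 were present in the table, each on a single row. Gene expression had been measured by RNA sequencing of PDGFRα-positive cardiac fibroblasts, taken without culture 7 days after coronary occlusion. The libraries fell into 4 labelled FTbR2KO, for fibroblast-specific loss of the TGF-β receptor TbR2 (gene Tgfbr2), and 4 labelled TbR2fl/fl, the controls that carry the floxed gene. Mice of both genotypes had been given tamoxifen by intraperitoneal injection. The Cre driver, the age and sex of the mice and whether each library came from a separate animal are not given in the sources used here. The p-values therefore describe how far these libraries spread, and part of that spread may be technical. The series title speaks of adipocyte conversion, and the comparison therefore asks whether genes of the fat cell differ between the genotypes in cells that still carry PDGFRα on their surface. A cell without PDGFRα on its surface would not have been sorted.

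White adipocytes store fatty acids as triacylglycerol in a single large lipid droplet coated by perilipins, and release them through a cascade of lipases. Fatty acids enter the cell after lipoprotein lipase has freed them from circulating lipoproteins, and are esterified onto glycerol phosphate by a chain of acyltransferases. Brown and beige adipocytes hold many small droplets and burn the fatty acids in mitochondria uncoupled by Ucp1. Several of these genes also work outside fat, since macrophages, endothelial cells and cardiomyocytes handle lipid with some of the same proteins, and a transcript of one of them does not by itself mark an adipocyte.

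The libraries labelled FTbR2KO held 16.1 to 22.9 M reads and the controls 21.2 to 28.7 M, as recovered from the deposited FPKM. That unit divides a gene's fragments by its length and by a depth total for the library, which here was not equal to the recovered reads. Read sums given below are not adjusted for the greater depth of the controls, so they do not show a direction. FTbR2KO 1 and TbR2fl/fl 5 stood apart from the other libraries on the first principal component, which carried 33.0% of the variance and ran across genotype. Tgfbr2 itself measured 58.2 ± 1.30 FPKM in the libraries labelled FTbR2KO and 45.5 ± 3.86 FPKM in the controls (SD, n = 4 each), with all 4 labelled FTbR2KO above all 4 controls. That order goes against the label, although a value for the whole gene cannot show the loss of an internal exon. Every direction below therefore refers to the libraries as labelled. Xist, the RNA of the inactive X chromosome in females, was at 38.4 to 49.7 FPKM in FTbR2KO 1 to 3 and at 30.7 to 49.0 FPKM in TbR2fl/fl 5 to 7, but at 0.0561 FPKM in FTbR2KO 4 and 0.0215 FPKM in TbR2fl/fl 8. The fibroblast label held: all 11 fibroblast markers, Pdgfra, Col1a1, Dcn and Tcf21 among them, were above 1 FPKM in all 8 libraries.

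The transcripts that define the mature adipocyte were missing or nearly so. Of the 40 genes, 14 reached 1 FPKM in all 8 libraries and 20 stayed below 1 FPKM in all of them. Among 7 genes that define the mature fat cell, Lep and Retn had no read in any library, and Adipoq, Plin1, Cidec and Pck1 together never reached 1 FPKM in any library. The seventh, Fabp4, is also made by endothelial cells and macrophages. The summed level of these 7 markers was 1.35 to 4.01 FPKM in the libraries labelled FTbR2KO and 0.874 to 2.41 FPKM in the controls. In a bulk sample, fewer cells of a type and less RNA per cell cannot be told apart. The highest FPKM of the set were those of Lpl, G0s2, Plin3, Angptl4 and Dio2, of which the first 4 act on lipid and Dio2 on thyroid hormone. These 5 genes made up between 61.9% and 66.2% of the summed FPKM of the set in the libraries labelled FTbR2KO, against 58.5% to 65.6% in the controls. Lpl alone made up 19.6% to 28.0% in the libraries labelled FTbR2KO, against 13.5% to 19.1% in the controls.

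**Figure D1:**
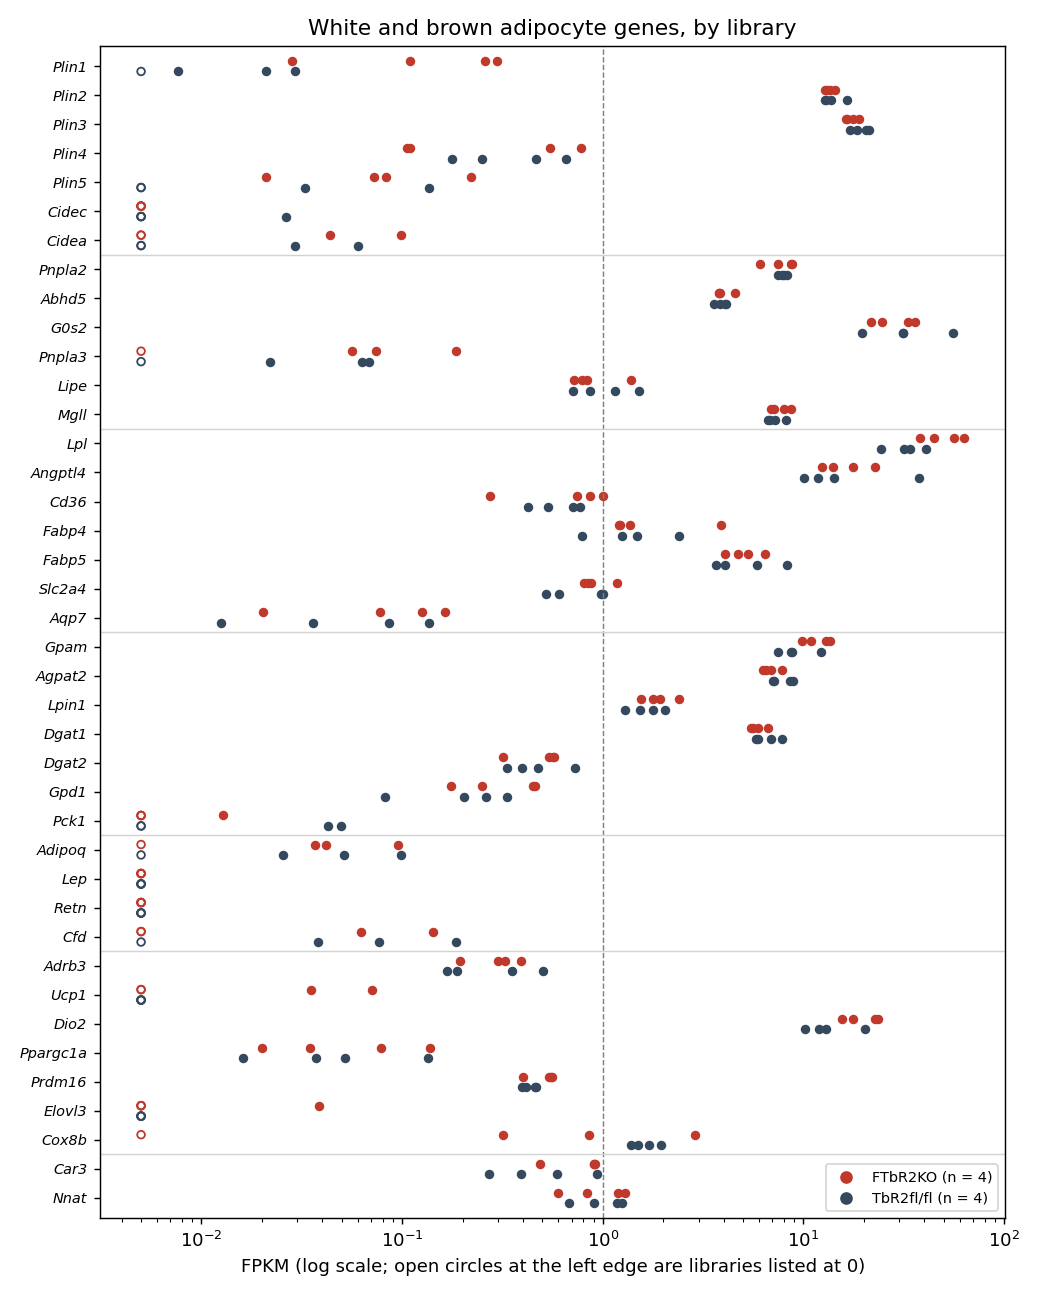
FPKM of the 40 genes in each library on a log axis, with FTbR2KO in red above TbR2fl/fl in blue, open circles at the left edge for libraries listed at 0 and a dashed line at 1 FPKM. Genes are grouped by role (droplet coat, lipolysis, uptake, triacylglycerol synthesis, adipokines, thermogenic, other); the groups of points overlap for each of the 38 genes with a read, and Lep and Retn lie at 0 throughout.

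Genes with at least 1 FPKM in at least 4 of the 8 libraries were tested with limma on log2(FPKM + 1). On that scale the fold change of a low gene is compressed, and an adjusted p of 0.05 over all 11667 such genes was the threshold. Of the 40 genes, 17 could be tested. None passed, in either direction, where 0.0171% of all tested genes passed (2 genes, both higher in the libraries labelled FTbR2KO). At an unadjusted p of 0.05, limma put 2 of the 17 higher, Lpl and Dio2, and 0 lower, beside 3.74% higher and 4.87% lower of all tested genes (8.61% in either direction). With limma's voom on the recovered reads the count past the adjusted threshold was also 0, and the same pair stood below an unadjusted 0.05. With 1 library left out, Lpl stayed below an unadjusted 0.05 each time, but Dio2 did not without FTbR2KO 2, FTbR2KO 3, TbR2fl/fl 5, TbR2fl/fl 6 or TbR2fl/fl 7, nor without the pair that stood apart on the first component. Without FTbR2KO 4 the count at an unadjusted 0.05 in limma was 3 higher (Gpam added) and 1 lower (Agpat2), beside 12.9% of all tested genes in either direction. Without FTbR2KO 1 it was 2 higher and 1 lower (Cox8b), beside 7.29% of all tested genes. The log2 fold change was above 0 for 8 of the 17 and below 0 for 9, where it was above 0 for 48.8% of all tested genes. Its median was -0.02 over the 17 and -0.0045 over all tested genes. In none of the 40 genes did the libraries labelled FTbR2KO lie wholly above or below the controls, where 4.41% of all tested genes were separate in this way (2.52% higher and 1.89% lower in the libraries labelled FTbR2KO). Of the genes below the filter that had a read, 1.35% were separate, 0.568% with the libraries labelled FTbR2KO higher.

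**Figure D2:**
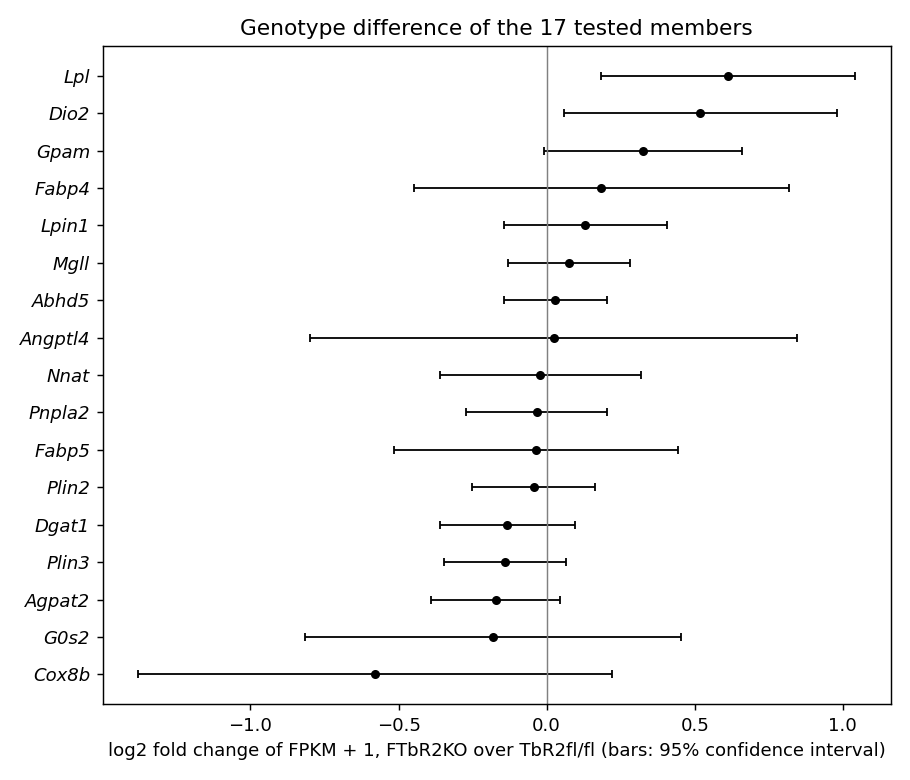
Log2 fold change of FPKM + 1, FTbR2KO over TbR2fl/fl, of the 17 tested genes, with the limma 95% confidence interval as bars. Intervals for Lpl and Dio2 lie above 0 before adjustment for the number of genes tested; those of the other 15 span 0.

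The perilipins, which coat the droplet and control the access of lipases, were divided between abundant and nearly silent genes. Plin2, found on droplets in most cell types, measured 12.8, 14.4, 13.6 and 13.1 FPKM in FTbR2KO 1 to 4, against 13.7, 12.9, 16.5 and 12.9 FPKM in TbR2fl/fl 5 to 8. Plin3, which moves from the cytosol onto new droplets, measured 17.8, 16.6, 16.4 and 18.9 FPKM in FTbR2KO 1 to 4, against 20.4, 18.5, 21.3 and 17.1 FPKM in the controls. Both ranges overlapped. The log2 fold change was -0.04 (95% confidence interval -0.25 to 0.16) for Plin2 and -0.14 (-0.35 to 0.07) for Plin3.

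The perilipins typical of fat and of oxidative tissue were far lower. Plin4, a perilipin of white fat, measured 0.778, 0.110, 0.543 and 0.106 FPKM in FTbR2KO 1 to 4, against 0.654, 0.178, 0.465 and 0.249 FPKM in TbR2fl/fl 5 to 8, and its spread within each genotype exceeded the difference between them. An exon of Plin4 overlaps Hdgfl2 on the opposite strand, and without strand the reads of the pair cannot be told apart. Hdgfl2 was far higher, at 7.77 ± 0.803 FPKM in the libraries labelled FTbR2KO and 9.13 ± 0.756 FPKM in the controls. Its part in the Plin4 values was not tested. Plin5, the perilipin of heart, muscle and brown fat, had 15 reads in the 4 libraries labelled FTbR2KO and 10 in the 4 controls. Its means were 0.0993 ± 0.0853 and 0.0421 ± 0.0642 FPKM in the same groups, which overlapped. Cidec and Cidea, which fuse small droplets into large ones, had 0 and 3 reads in the libraries labelled FTbR2KO and 1 and 3 in the controls.

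Plin1, the perilipin that guards the droplet of the mature adipocyte, lies on chr7:79720218-79732903, minus strand, and was scarce in every library. It measured 0.260, 0.297, 0.109 and 0.0282 FPKM in FTbR2KO 1 to 4, from 21, 24, 10 and 3 reads, against 0.0293, 0.00761, 0.0210 and 0 FPKM in TbR2fl/fl 5 to 8, from 4, 1, 2 and 0 reads. FTbR2KO 4 lay within the control range and the other 3 lay above it. The exact two-sided permutation p was 0.0571, where 4 against 4 libraries allow no p below 0.0286, and in limma without a filter on low genes the adjusted p was 0.842. Without FTbR2KO 4, and separately without TbR2fl/fl 5, the groups no longer overlapped (0.109 to 0.297 FPKM against 0 to 0.0293 FPKM, and 0.0282 to 0.297 FPKM against 0 to 0.0210 FPKM). Only FTbR2KO 4 and TbR2fl/fl 5 made the groups overlap, so leaving out either had to separate them. The share of all genes that separate when a library is left out was not counted. Pparg, the nuclear receptor that drives adipocyte formation and acts on Plin1, measured 0.644, 0.585, 1.03 and 0.282 FPKM in FTbR2KO 1 to 4, against 0.150, 0.336, 0.165 and 0.333 FPKM in TbR2fl/fl 5 to 8, so that the same 3 libraries lay above all controls. These values came from 33, 30, 60 and 19 reads against 13, 28, 10 and 28, with an exact permutation p of 0.0857. Cebpa, another factor of adipocyte formation, did not show this order. It averaged 13.04 ± 2.17 FPKM in the libraries labelled FTbR2KO and 10.45 ± 2.65 FPKM in the controls (exact permutation p = 0.2). Only FTbR2KO 1, at 16.04 FPKM, lay above all controls, since TbR2fl/fl 7 held 14.35 FPKM. The share of all genes with FTbR2KO 1 to 3 above all controls was not counted. A link between Pparg and Plin1 in these libraries was not tested. FTbR2KO 4 is also the library of its label with almost no Xist. Plin1 was higher in the libraries labelled FTbR2KO both among the libraries with Xist and within the pair without it (3 reads against 0). That order was shown by 1.14% of all genes below the filter that had a read, and by Plin1 alone of the 23 members below it. The order among the libraries with Xist follows from the values above, so only the pair, 1 library against 1, adds to it. A part of sex in these values was not tested.

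The start regions of this family are shown because it holds both abundant and nearly silent genes of one function, together with those of Cd36, a fatty acid carrier nearly silent here, and of Dio2, 1 of the pair of genes with an unadjusted p under 0.05. Each covers 250 bases before to 50 bases after the RefSeq start (GRCm38.p6), 5′ to 3′ on the gene's own strand, which is the minus strand in all 6 cases; for Plin5 the first of 2 listed windows is given. The windows are chr7:79732727-79733026 for Plin1, chr4:86670010-86670309 for Plin2, chr17:56290462-56290761 for Plin3, chr17:56117499-56117798 for Plin5, chr5:17835847-17836146 for Cd36 and chr12:90738989-90739288 for Dio2. Those of Plin3 and Cd36 lie inside the annotated gene spans, chr17:56277476-56292873 and chr5:17781690-17888801. Each of these therefore shows a start downstream of the annotated 5′ end. Capitals mark AGGTCA (or TGACCT), the core site of nuclear receptors such as the PPARs, and TATAAA (or TTTATA), the core of the TATA box.
Plin1: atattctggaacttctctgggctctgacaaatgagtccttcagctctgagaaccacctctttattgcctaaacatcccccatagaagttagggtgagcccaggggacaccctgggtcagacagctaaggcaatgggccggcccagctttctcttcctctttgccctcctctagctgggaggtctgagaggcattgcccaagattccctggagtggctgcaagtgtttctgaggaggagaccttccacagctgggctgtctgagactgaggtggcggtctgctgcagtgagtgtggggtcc
Plin2: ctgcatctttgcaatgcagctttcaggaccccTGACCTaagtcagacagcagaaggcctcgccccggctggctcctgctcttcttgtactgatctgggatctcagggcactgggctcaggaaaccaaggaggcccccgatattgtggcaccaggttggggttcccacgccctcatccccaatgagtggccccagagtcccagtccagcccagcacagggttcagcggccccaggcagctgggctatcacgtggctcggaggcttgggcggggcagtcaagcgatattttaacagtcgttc
Plin3: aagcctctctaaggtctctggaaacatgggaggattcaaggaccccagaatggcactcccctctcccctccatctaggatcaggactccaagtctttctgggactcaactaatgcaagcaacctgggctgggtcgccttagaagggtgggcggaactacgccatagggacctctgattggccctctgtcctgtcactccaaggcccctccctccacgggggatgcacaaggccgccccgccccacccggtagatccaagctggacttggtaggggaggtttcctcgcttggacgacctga
Plin5: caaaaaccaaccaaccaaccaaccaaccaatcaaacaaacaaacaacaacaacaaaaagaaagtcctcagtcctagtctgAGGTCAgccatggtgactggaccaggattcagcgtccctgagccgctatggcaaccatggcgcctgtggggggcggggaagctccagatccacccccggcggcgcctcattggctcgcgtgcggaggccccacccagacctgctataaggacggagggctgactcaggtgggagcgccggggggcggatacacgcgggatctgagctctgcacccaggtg
Cd36: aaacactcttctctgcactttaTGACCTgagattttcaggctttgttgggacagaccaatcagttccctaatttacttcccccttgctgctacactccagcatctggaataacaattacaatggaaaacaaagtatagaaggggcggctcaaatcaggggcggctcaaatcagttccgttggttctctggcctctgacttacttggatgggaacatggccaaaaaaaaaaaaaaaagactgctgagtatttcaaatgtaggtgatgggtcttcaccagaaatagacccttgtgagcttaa
Dio2: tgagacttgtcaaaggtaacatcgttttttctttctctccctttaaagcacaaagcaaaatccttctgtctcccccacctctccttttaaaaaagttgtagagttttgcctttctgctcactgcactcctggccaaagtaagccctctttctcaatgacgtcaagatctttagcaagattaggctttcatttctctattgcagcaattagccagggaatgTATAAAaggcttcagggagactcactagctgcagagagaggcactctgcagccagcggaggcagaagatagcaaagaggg
The core site stood in the windows of Plin2, Plin5 and Cd36, 1 abundant and 2 scarce genes, and in neither Plin1 nor Plin3. TATAAA stood in that of Dio2, starting at -30. Of the 40 genes 28 had a start region in the RefSeq table, and 8 of these 28 (28.6%) held AGGTCA on either strand, beside 18.1% of all 27025 genes with a start region. TATAAA was held by 2 of the 28 (7.14%, beside 15.7% of all genes), and the C/EBP palindrome TTGCGCAA by 1, Lep (3.57%, beside 0.207% of all genes). The full PPAR element, AGGTCA repeated after a spacer of any 1 base and so overlapping the core site, was in 0 of the 28 and in 0.0481% of all genes. A match of letters describes the window and shows no binding. Start regions of the tested members held a median of 15 CG pairs (12 genes) and those below the filter 6.5 (16 genes), beside 23 for all tested genes with a start region and 8 for all genes of the table.

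Lipolysis runs from the triacylglycerol lipase Pnpla2 (ATGL) with its activator Abhd5 and its inhibitor G0s2, through the hormone-sensitive lipase Lipe, to the monoacylglycerol lipase Mgll. The basal steps were well expressed and differed little between the genotypes. Pnpla2 averaged 7.76 ± 1.25 FPKM in the libraries labelled FTbR2KO and 7.90 ± 0.317 FPKM in the controls (SD, n = 4 each), and its log2 fold change of -0.03 had a 95% confidence interval of -0.27 to 0.20. Abhd5 averaged 4.00 ± 0.382 FPKM in the libraries labelled FTbR2KO and 3.89 ± 0.255 FPKM in the controls. Mgll averaged 7.67 ± 0.793 FPKM in the libraries labelled FTbR2KO and 7.23 ± 0.701 FPKM in the controls. Their intervals leave room for changes of up to 0.20 (Abhd5) and 0.28 (Mgll) upward on the log2 scale, and of -0.14 and -0.13 downward.

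G0s2 was the second most abundant gene of the set and varied strongly within the controls. It measured 33.3, 24.7, 21.8 and 35.8 FPKM in FTbR2KO 1 to 4, against 19.6, 31.5, 55.4 and 31.4 FPKM in TbR2fl/fl 5 to 8. The highest and the lowest library were both controls, and the log2 fold change was -0.18 with a 95% confidence interval of -0.82 to 0.45. Lipe measured 1.38, 0.792, 0.722 and 0.833 FPKM in FTbR2KO 1 to 4, against 1.52, 0.860, 1.15 and 0.710 FPKM in TbR2fl/fl 5 to 8, and so missed the filter. Its highest values came from the pair of libraries that stood apart on the first component. Pnpla3, a relative of Pnpla2, had 9 reads in the libraries labelled FTbR2KO and 6 in the controls.

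Lipid uptake held the set's leading gene. Lpl, the lipoprotein lipase that frees fatty acids from circulating triglyceride, ranked 879th of all 54532 genes by its mean level. The gene lies on chr8:68880491-68907448, plus strand (GRCm38, as for all positions given). It measured 63.3, 56.2, 44.7 and 38.0 FPKM in FTbR2KO 1 to 4, against 34.1, 31.5, 40.7 and 24.3 FPKM in TbR2fl/fl 5 to 8, from 7236 to 11514 reads a library. Libraries FTbR2KO 1 to 3 lay above all controls, and FTbR2KO 4 lay below TbR2fl/fl 7. The ratio of the means was 1.55, and limma put the log2 fold change at 0.61 (95% interval 0.18 to 1.04, SE 0.19), with a limma adjusted p of 0.571 and an exact permutation p of 0.0571. The lowest Lpl value of each genotype came from the library with almost no Xist, FTbR2KO 4 and TbR2fl/fl 8. The libraries labelled FTbR2KO were the higher both among the 6 libraries with Xist and within the pair without it, an order that 5.01% of all tested genes also showed. Lpl was the 1 tested member with that order, and Agpat2 the 1 with the opposite order. For Lpl the order among the 6 libraries follows from FTbR2KO 1 to 3 lying above all controls. Only the pair without Xist, 1 library against 1, adds to it. A part of sex in the Lpl values was not tested. With Xist level as a covariate in limma, added after the data were seen, the adjusted p of Lpl was 0.467. Each alternative setting kept the fold change above 0, between 0.48 and 0.79, and none brought it past the threshold. The summed FPKM of the set averaged 208.1 ± 13.5 in the libraries labelled FTbR2KO and 192 ± 15.7 in the controls, and 158 ± 7.84 against 159 ± 9.92 when Lpl was left out.

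Angptl4, a secreted inhibitor of lipoprotein lipase, showed no such order. It measured 17.6, 12.4, 22.7 and 14.1 FPKM in FTbR2KO 1 to 4, against 37.8, 14.2, 10.1 and 11.8 FPKM in TbR2fl/fl 5 to 8. A single control, TbR2fl/fl 5, was far above all other libraries. The log2 fold change was 0.02 (95% confidence interval -0.80 to 0.85) and became 0.42 without that control.

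The fatty acid binding protein genes carry lipid inside the cell. Fabp4, typical of adipocytes, endothelium and macrophages, measured 1.36, 1.21, 3.87 and 1.22 FPKM in FTbR2KO 1 to 4, against 1.24, 1.48, 0.784 and 2.39 FPKM in TbR2fl/fl 5 to 8. FTbR2KO 3 held more than any other library, and without it the log2 fold change was -0.09 in place of 0.19. The 9 endothelial markers other than Tek summed to 3.73 FPKM in FTbR2KO 3 and 4.65 FPKM in TbR2fl/fl 8. They summed to 1.56 to 3.71 FPKM in the other 6 libraries, so the 2 libraries highest for Fabp4 were narrowly also the 2 highest for these markers. Tek went the other way, at 16.7 FPKM in FTbR2KO 3 and 15.1 FPKM in TbR2fl/fl 8, the lowest of each label. With Tek included, the endothelial sum was also the lowest of each label in these libraries, at 20.4 and 19.8 FPKM. Macrophage markers summed to 16.6 FPKM in FTbR2KO 3, within the 10.7 to 17.9 FPKM of the other libraries. The part of such cells in the Fabp4 values was not tested. Fabp5, the form of skin and macrophages, measured 4.07, 5.29, 6.40 and 4.74 FPKM in FTbR2KO 1 to 4, against 3.65, 5.84, 4.07 and 8.31 FPKM in TbR2fl/fl 5 to 8, with a log2 fold change of -0.04 (95% confidence interval -0.52 to 0.44).

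The membrane transporters were low. Cd36, which takes up long-chain fatty acids, measured 0.273, 0.866, 1.00 and 0.744 FPKM in FTbR2KO 1 to 4, against 0.768, 0.532, 0.422 and 0.714 FPKM in TbR2fl/fl 5 to 8. Slc2a4, the insulin-regulated glucose transporter of fat and muscle, measured 1.18, 0.877, 0.844 and 0.805 FPKM in FTbR2KO 1 to 4, against 0.519, 0.977, 0.997 and 0.606 FPKM in the controls. Aqp7, a channel that lets glycerol leave the fat cell, had 21 reads in the libraries labelled FTbR2KO and 20 in the controls. Its means were 0.0965 and 0.0679 FPKM in the same groups. For each of these 3 genes the groups overlapped, with exact permutation p of 0.543, 0.314 and 0.543.

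**Figure D3:**
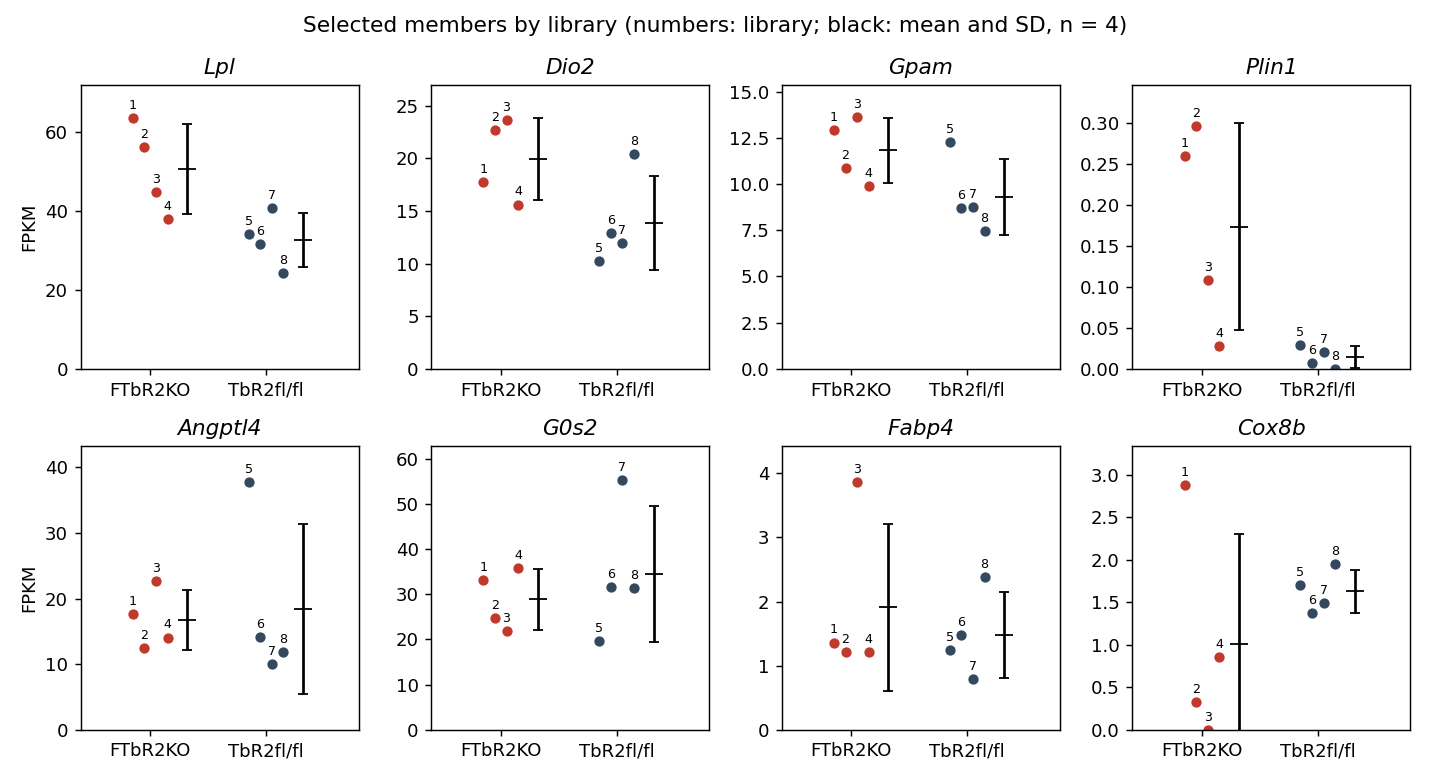
FPKM of 8 genes in each library, FTbR2KO in red left of TbR2fl/fl in blue, with the library number beside each point and the mean and SD of the 4 libraries in black (bars are cut off at 0). For Lpl and Plin1, FTbR2KO 1 to 3 lie above all controls and FTbR2KO 4 does not, and for Dio2 all 4 lie above 3 of the controls, while Angptl4, G0s2 and Fabp4 each have 1 library far above the others of its genotype.

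Triacylglycerol synthesis starts with the acyltransferase Gpam, which acts on glycerol 3-phosphate, continues through Agpat2 and the phosphatidate phosphatase Lpin1, and ends with Dgat1 and Dgat2. Gpam, on chr19:55069734-55099451, minus strand, measured 12.9, 10.9, 13.6 and 9.87 FPKM in FTbR2KO 1 to 4, against 12.3, 8.69, 8.76 and 7.46 FPKM in TbR2fl/fl 5 to 8. All 4 libraries labelled FTbR2KO lay above 3 of the controls, and TbR2fl/fl 5 lay among them. In limma its log2 fold change of 0.33 (SE 0.15) had a 95% interval of -0.0088 to 0.66 and an adjusted p of 0.589. The 3 highest libraries for Gpam, FTbR2KO 3, FTbR2KO 1 and TbR2fl/fl 5, were also the 3 highest for the summed epicardial and mesothelial markers, at 26.7, 39.2 and 25.5 FPKM, while the other 5 libraries held 0.793 to 15.8 FPKM. The part of those cells in the Gpam values was not tested.

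The next enzymes differed by less. Agpat2 averaged 6.90 ± 0.679 FPKM in the libraries labelled FTbR2KO and 7.92 ± 0.950 FPKM in the controls (SD, n = 4 each), with a log2 fold change of -0.17 (95% confidence interval -0.39 to 0.05). Its exons overlap those of Egfl7 on the opposite strand, which was listed at 0.250 ± 0.110 and 0.261 ± 0.0894 FPKM in the same groups. Lpin1, whose product removes the phosphate from phosphatidic acid, averaged 1.91 ± 0.362 FPKM in the libraries labelled FTbR2KO and 1.66 ± 0.325 FPKM in the controls. Of the enzymes of the final step, Dgat1 averaged 5.93 ± 0.553 FPKM in the libraries labelled FTbR2KO and 6.62 ± 0.955 FPKM in the controls. Dgat2 averaged 0.500 ± 0.123 FPKM in the libraries labelled FTbR2KO and 0.484 ± 0.174 FPKM in the controls. In limma the adjusted p was 0.628 for Agpat2, 0.768 for Lpin1 and 0.728 for Dgat1.

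The genes that supply glycerol phosphate in fat were scarce. Gpd1, the glycerol 3-phosphate dehydrogenase, measured 0.447, 0.175, 0.461 and 0.251 FPKM in FTbR2KO 1 to 4, against 0.333, 0.203, 0.0825 and 0.261 FPKM in TbR2fl/fl 5 to 8, with an exact permutation p of 0.257. Pck1, which makes glycerol phosphate precursors from pyruvate in fasting adipocytes, had 1 read in the libraries labelled FTbR2KO and 8 in the controls, of which 5 were in TbR2fl/fl 5.

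Adipokines, the hormones that adipocytes secrete, were close to or at the limit of detection. Adipoq, which encodes adiponectin, had 1, 0, 1 and 3 reads in FTbR2KO 1 to 4, against 4, 2, 0 and 1 reads in TbR2fl/fl 5 to 8. Cfd, which encodes adipsin, a complement protease, had 4 reads in the libraries labelled FTbR2KO and 8 in the controls. Lep and Retn, which encode leptin and resistin, had 0 reads in all 8 libraries. A count of 0 allows up to 3 reads a library, which is 0.0392 to 0.0515 FPKM of Lep in the libraries labelled FTbR2KO and 0.0305 to 0.0437 FPKM in the controls, and for Retn 0.0832 to 0.109 and 0.0647 to 0.0928 FPKM in the same groups. These limits cover counting error alone.

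Thermogenic genes were scarce except Dio2. Dio2 encodes the deiodinase that converts thyroxine to active thyroid hormone, and in brown fat it serves the response to cold. The gene lies on chr12:90724552-90738438, minus strand, and its RefSeq start lies upstream of the span annotated there. It measured 17.7, 22.7, 23.7 and 15.6 FPKM in FTbR2KO 1 to 4, against 10.2, 12.9, 11.9 and 20.4 FPKM in TbR2fl/fl 5 to 8. All 4 libraries labelled FTbR2KO lay above 3 of the controls, and TbR2fl/fl 8 exceeded 2 of them. The ratio of the means was 1.44, and limma put the log2 fold change at 0.52 (95% interval 0.06 to 0.98, SE 0.20), with a limma adjusted p of 0.571 and an exact permutation p of 0.0857. Over all alternative settings the fold change ran from 0.40 to 0.71. Its exons overlap Gm26512 on the opposite strand, listed at 0.342 ± 0.130 FPKM in the libraries labelled FTbR2KO and 0.283 ± 0.0750 FPKM in the controls.

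The other genes of the brown programme stayed low. Ucp1, the uncoupling protein itself, had 2 reads in FTbR2KO 1, 1 read in FTbR2KO 2 and none in the other 6 libraries. Ppargc1a, the coactivator of mitochondrial biogenesis, had 34 reads in the libraries labelled FTbR2KO and 43 in the deeper controls. Its means were 0.0679 ± 0.0531 and 0.0599 ± 0.0517 FPKM in the same groups. Elovl3, a fatty acid elongase of cold-exposed brown fat, had 1 and 0 reads. Adrb3, the β3-adrenergic receptor of fat, averaged 0.303 ± 0.0820 FPKM in the libraries labelled FTbR2KO and 0.303 ± 0.157 FPKM in the controls. Prdm16, a transcription factor that directs brown fat identity, measured 0.538, 0.549, 0.402 and 0.559 FPKM in FTbR2KO 1 to 4, against 0.413, 0.467, 0.461 and 0.396 FPKM in TbR2fl/fl 5 to 8. FTbR2KO 1, 2 and 4 lay above all controls and FTbR2KO 3 lay below 3 of them, with an exact permutation p of 0.114. Without FTbR2KO 3 the groups were apart, at 0.538 to 0.559 FPKM in the libraries labelled FTbR2KO and 0.396 to 0.467 FPKM in the controls. FTbR2KO 3 was the library that made the groups overlap, so leaving it out had to separate them.

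Cox8b, a subunit of cytochrome oxidase found in heart, muscle and brown fat, had the lowest fold change of the 17. It measured 2.88, 0.320, 0 and 0.851 FPKM in FTbR2KO 1 to 4, against 1.70, 1.38, 1.49 and 1.95 FPKM in TbR2fl/fl 5 to 8, from 18, 2, 0 and 7 reads against 18, 14, 11 and 20. The highest and the 3 lowest libraries were all labelled FTbR2KO. The log2 fold change of -0.58 (95% confidence interval -1.38 to 0.22, limma adjusted p = 0.654) became -0.96 without FTbR2KO 1, -0.31 without FTbR2KO 3 and -1.55 with a pseudocount of 0.1. Cardiomyocyte markers summed to 3.69 FPKM in FTbR2KO 1 and to 5.84 to 6.75 FPKM in the other libraries of that label. In the controls they summed to 4.68 to 6.84 FPKM. The part of such cells in the Cox8b values was not tested.

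Of the remaining pair, Car3, an abundant carbonic anhydrase of adipocytes and muscle, measured 0.905, 0.904, 0.918 and 0.489 FPKM in FTbR2KO 1 to 4, against 0.939, 0.272, 0.392 and 0.589 FPKM in TbR2fl/fl 5 to 8. The control range enclosed that of the libraries labelled FTbR2KO (exact permutation p = 0.257). Nnat, an imprinted gene of the endoplasmic reticulum membrane, averaged 0.979 ± 0.323 FPKM in the libraries labelled FTbR2KO and 1.00 ± 0.260 FPKM in the controls (SD, n = 4 each).

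Levels compared between genes depend on the length by which the authors divided. For Fabp4 that length was 4489 bases, 5.01 times the main transcript of the GENCODE annotation (896 bases), for Fabp5 it was 3.61 times and for Lpl 2.55 times the main transcript, while for Gpam it was 0.621 of it. Per base of the main transcript, Fabp4 would stand at 9.58 FPKM in the libraries labelled FTbR2KO and 7.39 FPKM in the controls, Lpl at 128.7 and 83.1 FPKM, and Gpam at 7.34 and 5.77 FPKM. These values hold only if all counted reads came from the main transcript and its whole length was counted, which was not tested. A length shared by all libraries leaves the ratio between genotypes as it is. An exon overlaps another annotated gene in 12 of the 40 genes, in 11 of them on the opposite strand.

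Companion genes of the same pathways were read beside the set. Of 37 further genes of lipid storage and lipolysis, 29 were tested and none passed in either direction in limma, with 1 higher and 0 lower at an unadjusted p of 0.05. That gene was Acsl4, an acyl-CoA synthetase that prefers arachidonic acid, at 10.5 ± 1.21 FPKM in the libraries labelled FTbR2KO and 8.58 ± 0.971 FPKM in the controls (log2 fold change 0.27, SE 0.10). Lmf1, the chaperone needed to fold lipoprotein lipase, measured 1.25, 1.47, 1.46 and 1.59 FPKM in FTbR2KO 1 to 4, against 1.60, 1.85, 1.76 and 1.73 FPKM in TbR2fl/fl 5 to 8. The groups thus did not overlap, the libraries labelled FTbR2KO being the lower, as in 1.89% of all tested genes. Its log2 fold change was -0.16 (SE 0.083, limma adjusted p = 0.604). For Fabp3, the fatty acid binding protein of heart, the log2 fold change was -0.34 (SE 0.17), and for the fatty acid transporter Slc27a4 -0.14 (SE 0.075).

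Of 21 further adipokine, receptor and insulin signalling genes, 16 were tested and none passed in limma, with 0 at an unadjusted p of 0.05 and a median log2 fold change of 0.11. Lepr, the leptin receptor, averaged 4.72 ± 1.54 FPKM in the libraries labelled FTbR2KO and 3.16 ± 1.40 FPKM in the controls (log2 fold change 0.48, SE 0.25). The log2 fold change was -0.26 (SE 0.13) for Metrnl, 0.13 (SE 0.094) for Nampt and 0.30 (SE 0.22) for Rbp4, all of which encode secreted proteins. Of 29 further thermogenic genes, 10 were tested and none passed, again with 0 at an unadjusted p of 0.05, and 17 stayed below 1 FPKM in all libraries. Among those tested, the log2 fold change was -0.24 (SE 0.13) for Esrra, a nuclear receptor of mitochondrial genes, 0.18 (SE 0.12) for Pank1, a kinase of coenzyme A synthesis, 0.13 (SE 0.089) for Acot11, an acyl-CoA thioesterase, and -0.13 (SE 0.10) for Letmd1, a mitochondrial protein of brown fat. The groups did not overlap for Pank1, at 1.29 ± 0.313 FPKM in the libraries labelled FTbR2KO and 1.01 ± 0.101 FPKM in the controls. Its exact permutation p of 0.0286 is the smallest that 4 against 4 libraries allow. Among all tested genes, 2.52% were separate with the libraries labelled FTbR2KO higher. How many of the companion genes were separate was not counted.

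Summed markers of other cell types overlapped between the genotypes. Of 12 macrophage markers 4 could be tested, and the 12 summed to 10.7 to 17.0 FPKM in the libraries labelled FTbR2KO and 13.1 to 17.9 FPKM in the controls. The markers were uneven: 3 of the 12 reached 1 FPKM in all libraries, while the leukocyte gene Ptprc was below 0.05 FPKM in every library. Of 10 endothelial markers 1 could be tested, and the sum was 20.4 to 26.9 FPKM in the libraries labelled FTbR2KO and 19.8 to 29.4 FPKM in the controls, most of it from Tek. The 12 cardiomyocyte markers summed to 3.69 to 6.75 FPKM in the libraries labelled FTbR2KO and 4.68 to 6.84 FPKM in the controls, and the 6 mural markers to 47.1 to 73.9 and 47.6 to 63.3 FPKM. Epicardial and mesothelial markers, 7 genes, varied most, at 4.49 to 39.2 FPKM in the libraries labelled FTbR2KO and 0.793 to 25.5 FPKM in the controls. No marker passed the threshold, and the part of any of these cells in the values above was not tested.

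**Figure D4:**
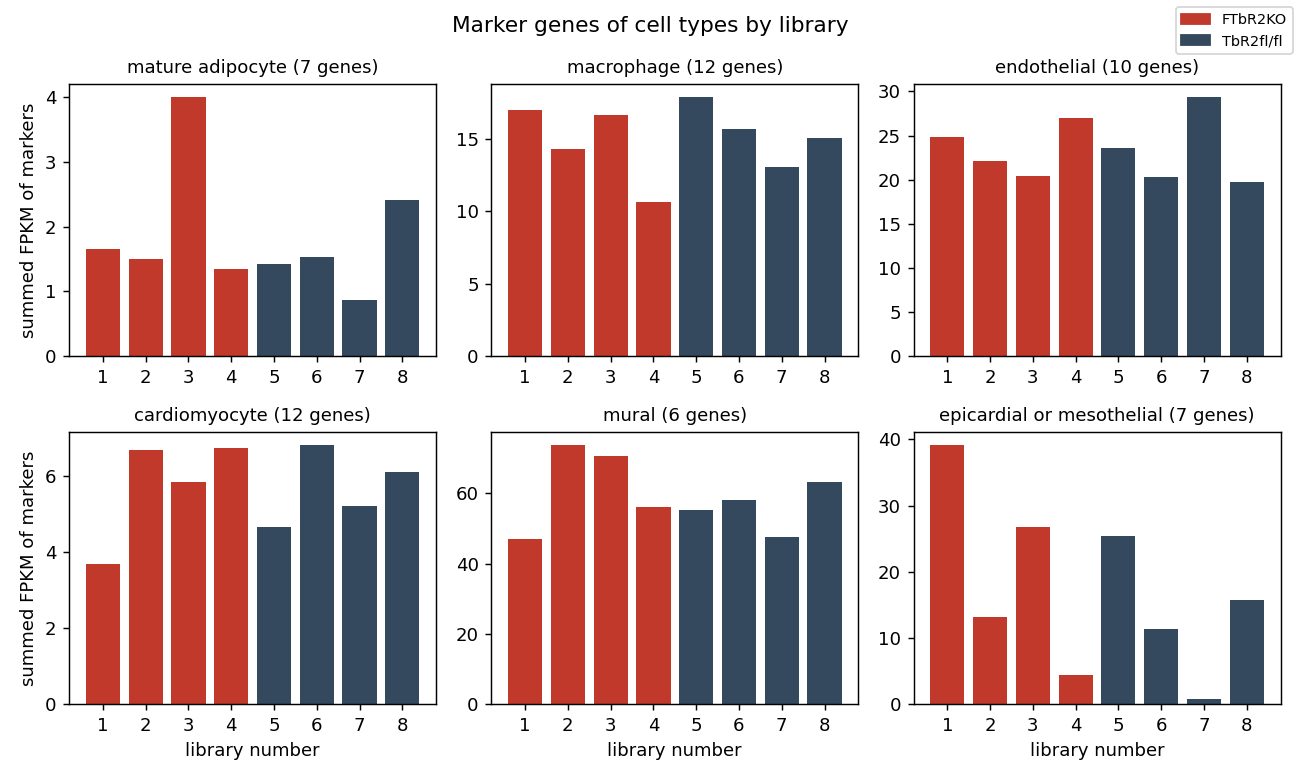
Summed FPKM of marker genes of 6 cell types in each library, FTbR2KO 1 to 4 in red left of TbR2fl/fl 5 to 8 in blue. The epicardial and mesothelial sum runs from 0.793 to 39.2 FPKM across libraries of both genotypes, and the mature adipocyte sum is highest in FTbR2KO 3 at 4.01 FPKM, most of it Fabp4.

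The libraries that stood apart on the first component held extreme values for a few of the genes. FTbR2KO 1 and TbR2fl/fl 5 were together the 2 highest libraries for Plin4, Lipe, Lpin1 and Nnat and the 2 lowest for Abhd5. Among the 17 tested members they were both highest in 2 (11.8%) and both lowest in 1 (5.88%), beside 9.87% and 18.6% of all tested genes. Without the pair, the log2 fold change was 0.52 for Lpl, 0.45 for Dio2, 0.41 for Gpam and -0.95 for Cox8b, and no member passed the threshold.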

How the data were processed

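The authors deposited FPKM per gene, with a gene length column per the file headers. Listed in the submitters' processing notes are the builds GRCm38.p6 and mm10, and the tools HTSeq 0.6.1, Cufflinks 2.1.1, TopHat2 2.0 and CASAVA, with no role or order. Per the labels' protocols, poly(A) libraries came from a kit that is not said to keep strand. FPKM multiplied by length was a whole multiple of 1 step per library for 100% of nonzero values (within 0.01), which gave reads and depth. Median-of-ratios size factors of the FPKM values were 1 in every library, so the deposited scaling already matched that method.

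Genes reaching 1 FPKM in 4 or more of the 8 libraries were compared with limma 3.58.1 (R 4.3.3), trended variance, pseudocount 1, no covariate, Benjamini-Hochberg over all tested genes, two-sided at 0.05. Single members were compared by the exact two-sided permutation test of mean FPKM (scipy 1.17.1). The alternatives are those of the closing section. Members and companion lists were chosen with earlier results of these data known, and all members, up to 4 companion genes a list by p, and lead markers were named. Dio2 was added to the start regions after its values were seen. Protein sequences were not used here.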

Additional observations from a re-analysis of the deposited data

Results flagged for a closer look

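In 73 groups of 4 libraries with unequal values, 10 had a highest or lowest library whose gap to its neighbour exceeded Dixon's 95% limit as a share of the group's range. Chance gives about 1 in 20 for independent values of a normal spread, which FPKM from a few reads need not follow. The groups also share the same libraries, and the share over all genes was not counted. In the libraries labelled FTbR2KO the gap was 0.942 for Fabp4 (FTbR2KO 3 highest, 3.87 FPKM), 0.919 for Abhd5 (FTbR2KO 3 highest, 4.57 FPKM), 0.832 for Lipe (FTbR2KO 1 highest, 1.38 FPKM), 0.966 for Car3 (FTbR2KO 4 lowest, 0.489 FPKM), 0.871 for Dgat2 (FTbR2KO 1 lowest, 0.318 FPKM) and 0.865 for Prdm16 (FTbR2KO 3 lowest, 0.402 FPKM). In the controls it was 0.851 for Angptl4, where TbR2fl/fl 5 held 37.8 FPKM from 3644 reads. For Pck1 (FTbR2KO 4), Elovl3 (FTbR2KO 1) and Cidec (TbR2fl/fl 7) the gap was 1, from a single read in 1 library and none in the other 3 of its group.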

How the results depend on the processing

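No member passed the threshold under any alternative run. Directions were unchanged for 7 of the 17 tested members (Lpl, Dio2, Gpam, Lpin1, Mgll, Agpat2 and Cox8b), and 25 of 238 member values turned round, all of them with an adjusted p above 0.05. That tally leaves out the filters, median-of-ratios scaling and the Xist covariate, which leave each fold change as it is in this balanced design. Leaving out each library in turn gave -0.18 to 0.42 for Angptl4, -0.18 to 0.16 for Fabp5, -0.090 to 0.064 for Pnpla2, -0.10 to 0.076 for Nnat, -0.024 to 0.053 for Abhd5, -0.092 to 0.35 for Fabp4, -0.079 to 0.032 for Plin2 and -0.41 to 0.072 for G0s2 (log2 fold changes). Conversion to TPM moved the median of all genes to 0.15 and of the members to 0.12, and turned Plin2 (0.12), Plin3 (0.019), Pnpla2 (0.12), Fabp5 (0.12), Dgat1 (0.013) and Nnat (0.086), all still below the all-gene median; quantile normalization turned Nnat (0.022). Those shifts follow from the scaling itself. TPM, scaling to recovered reads and the Xist covariate (3 genes past the threshold, no member) were added after the data were seen. Over all genes the count past the threshold was 1 with a filter of FPKM 5, which removes low genes, and 2 to 8 with 1 library left out (8 without FTbR2KO 4). Of the 23 members below the filter, 0 to 1 had separate groups with 1 library left out: Plin1 without FTbR2KO 4 or TbR2fl/fl 5, and Prdm16 without FTbR2KO 3. In each case the overlap came from the library left out, and the share of all genes that separate in this way was not counted. The cause was not tested. No paired analysis was possible because the groups share no replicate number, and the labels do not say that the other numbers in the titles mark a litter, batch or day. Depth limits the 15 members with fewer than 100 reads over all libraries.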
